A study of Daphnia magna with 30 samples.

Results

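DM15253P2 and DM08656P1 are array probes for transcripts of the water flea Daphnia magna to which the study's annotation gives no function: the target of DM15253P2 is listed as a hypothetical protein and that of DM08656P1 as having no significant match. They are 2 of the 14338 probes on the array. Both were picked because their signal stood below background in all 4L:20D animals and above it on long days, so their values under 4L:20D, and the contrast of 4L:20D with any longer day, are given as a description without a test. The question was at which day length each of them was first detected, and whether its level still differed between the days beyond that.

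The animals were adult females, 21 days old, of a laboratory culture founded by a single individual, and each was arrayed whole, with whatever its brood pouch held. From hatching they lived under the short days 4L:20D or 8L:16D (hours of light and of dark), the even 12L:12D, or the long days 16L:8D or 20L:4D, with 16L:8D being the light cycle of the parent culture and the control of the study. Each photoperiod had 3 exposure chambers (replicates 1 to 3) with 2 animals from each (A and B), that is 6 arrays per photoperiod and 30 in all. The chambers of a photoperiod shared a light-proof box, and animals were taken soon after the lights came on. Box, length of the preceding night and day length therefore cannot be told apart in any comparison.

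Day length is a seasonal cue in Daphnia: shortening days, together with crowding and scarce food, are known to turn a clone from parthenogenesis to the production of males and resting eggs. Light is sensed by opsins of the compound eye and the single naupliar eye, and time of day is kept by a clock of period-type proteins, as in insects. The arrays read whole animals and do not show in which tissue either transcript was made. Whether fewer cells carried it or each cell held less of it cannot be told apart in these samples.

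The probe sequences are shown because one of the members overlaps with another probe of the array. They are printed 5′ to 3′ as the supplement of the study lists them, and capitals mark the run of 24 bases that DM08656P1 shares with DM14137P3.
DM15253P2: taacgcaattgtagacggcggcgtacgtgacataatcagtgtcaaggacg
DM08656P1: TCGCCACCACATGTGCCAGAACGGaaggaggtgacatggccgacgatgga
DM14137P3: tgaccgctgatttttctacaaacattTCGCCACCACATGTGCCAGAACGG

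Each probe is 50 bases long. The first 24 bases of DM08656P1 (positions 1 to 24 from its 5′ end) are the last 24 of DM14137P3 (positions 27 to 50), on the same strand. Joined at this run the sequences span 76 bases, and whether a transcript holds that stretch was not tested. DM14137P3 is annotated as an uncharacterised protein of Daphnia magna, while DM08656P1 is listed without a match. Among the 953 probes of the array with a sequence at hand, 25 (2.62%) shared a run of at least 15 bases with another probe on either strand. DM15253P2 was not one of them, as its longest shared run was 10 bases. G and C made up 25 of the 50 bases of DM15253P2 (50%), 30 of DM08656P1 (60.0%) and 24 of DM14137P3 (48.0%), against a median of 48.0% over the 953. The array holds no other probe with the target number of either member. None of these targets was found in the reference gene table, and their place in the genome was not analysed here.

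Values are the processed signal of the scanner software in intensity units, or their log2 relative to the 75th percentile of that array. Statements on which arrays lay above others use the log2 values, which are scaled between arrays. A probe counts as detected on an array where the software flagged it as well above background. The 75th percentile ranged from 359 to 643 intensity units and the share of probes detected from 69.5% to 89.8% between arrays. The lowest detected signal on an array ranged from 6.45 to 15 intensity units. Both probes that the supplement of the study annotates as vitellogenin, the yolk precursor of egg-bearing females, were detected on all 30 arrays. So were 8835 of the 14338 probes (61.6%), and nothing is read from it. The array with the fewest probes detected was animal A of replicate 3 under 16L:8D, which also stood apart in DM08656P1, and results that rest on it are given with and without it.

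DM15253P2 was first detected on days of 8 hours of light. It was detected on 0 of 6 arrays under 4L:20D, 5 of 6 under 8L:16D and all 6 arrays of each longer day. DM08656P1 was first detected on days of 12 hours of light: it was detected on 0 of 6 arrays under 4L:20D and 8L:16D, 6 of 6 under 12L:12D, 5 of 6 under 16L:8D and 6 of 6 under 20L:4D. With the less strict flag of the software (signal positive and significant against background), both were present on 3 of 6 arrays under 4L:20D and on all 6 under 8L:16D, so the day length of first detection depends on the flag, and under the less strict flag the step that separated the probes was no longer there.

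**Figure D1:**
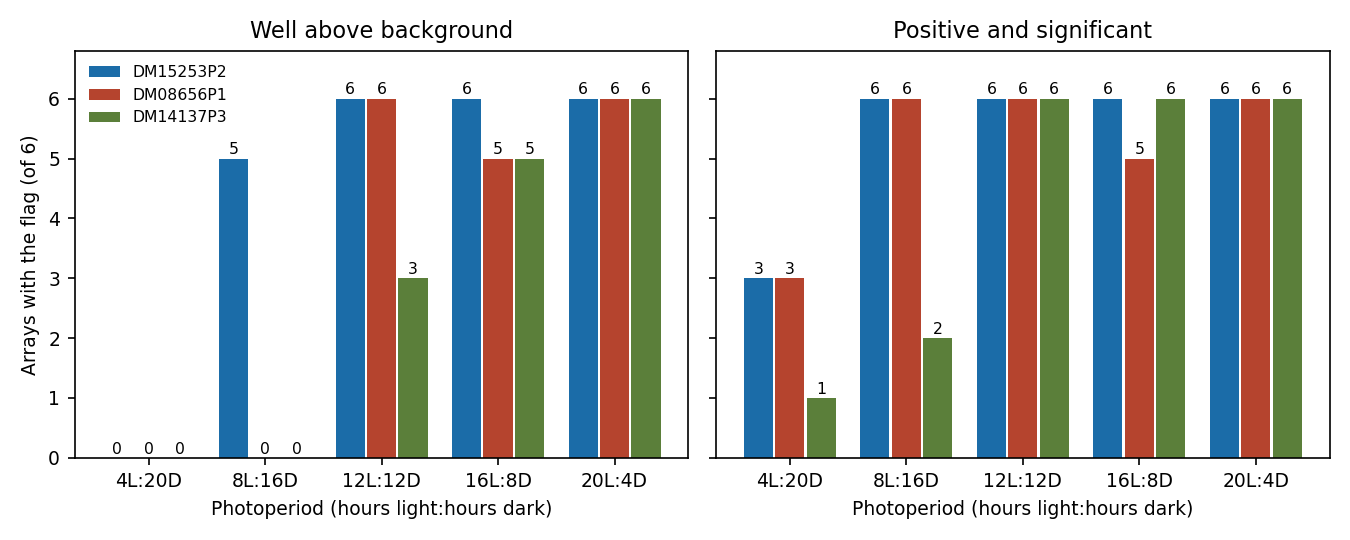
Number of arrays, of 6 in each photoperiod, on which DM15253P2, DM08656P1 and the overlapping probe DM14137P3 were flagged well above background (left) or positive and significant (right). At the stricter flag DM15253P2 reached 5 arrays under 8L:16D, where the other probes were at 0; at the less strict flag DM15253P2 and DM08656P1 both reached 6 there.

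The signal of DM15253P2 under 4L:20D was 1.91 at its lowest, 2.71 at the median and 5.09 at its highest intensity units (n = 6). Under 8L:16D the lowest was 5.92, the median 19.4 and the highest 25.8. Under 12L:12D these were 21.3, 41.5 and 54.2. All 8L:16D arrays were above all 4L:20D arrays, as in 86 of the 14336 probes tested (0.6%), and the lowest of them, animal B of replicate 2, was the one array of that photoperiod on which the probe was not detected. Nothing is read from this share, as low 4L:20D values were part of the choice of the probes.

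Under 16L:8D the lowest signal of DM15253P2 was 28.3, the median 36.4 and the highest 76.1 intensity units. Under 20L:4D the lowest was 15.6, the median 54.8 and the highest 75.3. The arrays of the 3 longest days overlapped in part: 4 of 6 arrays of 20L:4D and 3 of 6 of 16L:8D lay above all those of 12L:12D, and the low array of 20L:4D (animal A of replicate 1) lay below every array of 16L:8D.

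The signal of DM08656P1 was between 1.63 and 6.22 intensity units under 4L:20D, with a median of 3.79. Under 8L:16D it was between 3.87 and 9.01, with a median of 5.22. On the log2 scale 4 arrays of 4L:20D lay below all those of 8L:16D and the others overlapped with them; no array of either was detected, so no fold is given between them. Under 12L:12D the signal was 10.2 at its lowest, 18.5 at the median and 42.0 at its highest, above every array of both shorter days. Such a separation of 12L:12D from 4L:20D was seen in 29 of 14336 probes (0.202%). Low 4L:20D values were part of the choice of the probes, so nothing is read from this share.

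Under 16L:8D the signal of DM08656P1 was 3.35 at its lowest, 31.9 at the median and 101 at its highest. Under 20L:4D it was 23.4 at its lowest and 322 at its highest, with 196 and 204 as the middle values. On the log2 scale 5 of 6 animals of 20L:4D lay above all animals of 16L:8D (before scaling, 4 of 6), and the exception was the animal that was also lowest in DM15253P2. Full separation of these groups, with 20L:4D higher, was found in 4 of 14336 probes (0.0279%), neither member among them. The low value under 16L:8D, from the array with the fewest probes detected, was the one array of that photoperiod without detection and lay within the range of 4L:20D.

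**Figure D2:**
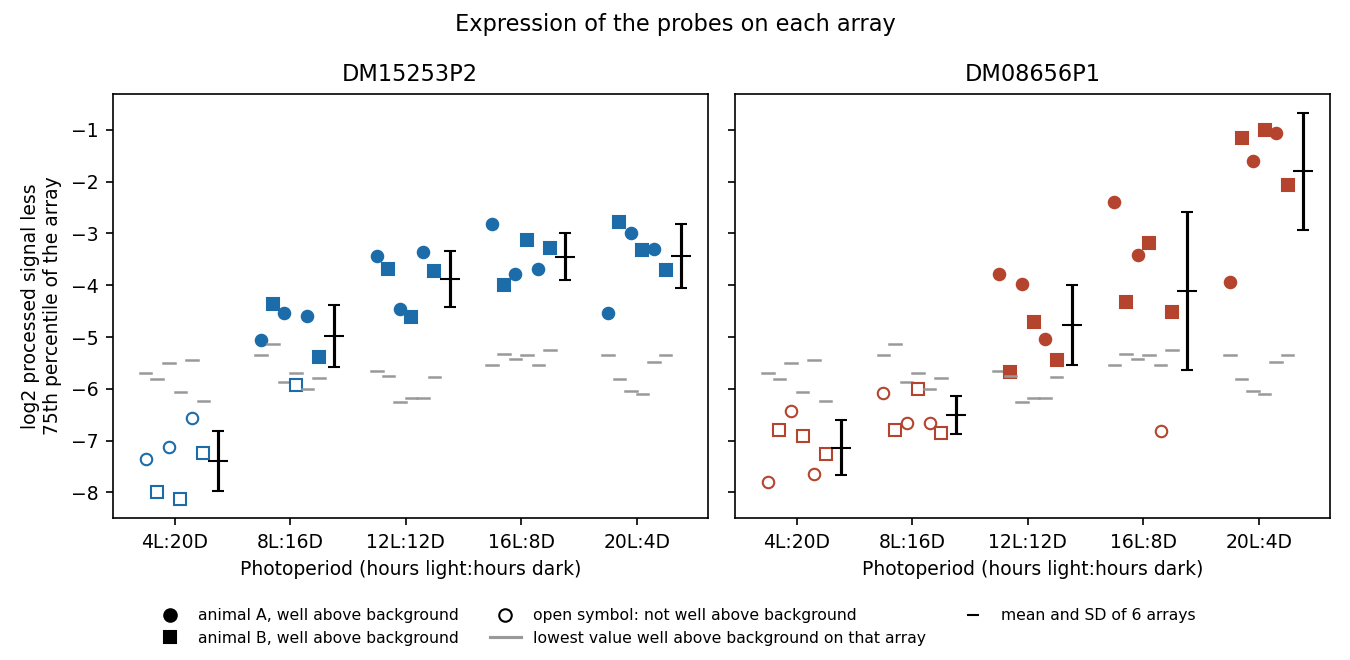
Processed signal as log2 relative to the 75th percentile of the array (vertical axis), for DM15253P2 (left) and DM08656P1 (right), with one symbol per animal in each photoperiod. Open symbols were not well above background, grey dashes mark the lowest detected value on each array, and bars give the mean and SD of 6 arrays; DM15253P2 averaged -3.44 under 20L:4D and -3.45 under 16L:8D, whereas DM08656P1 averaged -1.80 under 20L:4D and -4.11 under 16L:8D.

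The detection pattern was uncommon on this array. Of 14338 probes, 1471 (10.3%) were undetected on all 6 arrays of 4L:20D and 623 (4.35%) on all 30. A single probe, DM15253P2, was undetected under 4L:20D and detected on all 12 arrays of 16L:8D and 20L:4D. The probes with 11 of those 12 arrays were DM08656P1 and DM14137P3, and none had 10 of 12. None was detected on 1 array of 4L:20D and all 12 of the long days. As these counts hold the values by which the probes were picked, they only describe how far the members stood from their nearest neighbours.

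The brighter groups can be set against 4L:20D only as bounds, since no array of 4L:20D was detected: the mean log2 value of the brighter group was set against the mean, over the dim arrays, of the lowest detected log2 value or the probe's own where that was higher. On this scale 12L:12D animals had at least 3.77-fold higher DM15253P2 than 4L:20D animals and 20L:4D animals at least 5.11-fold. For DM08656P1, 12L:12D was at least 2.03-fold higher than 4L:20D. The same calculation gave 1.76-fold for DM15253P2 under 8L:16D and 3.20-fold for DM08656P1 under 16L:8D, where the groups overlapped. These 2 are not strict bounds, as each mean includes 1 undetected array at its measured value. Those arrays were 8L:16D replicate 2 B, at -5.92, and 16L:8D replicate 3 A, at -6.81. The 3.20-fold was not computed without the latter. Every array of 20L:4D was above every array of 4L:20D in both probes. That held for 26 of 14336 probes (0.181%), and nothing is read from it, since the choice of the probes fixed it.

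From 8L:16D to 12L:12D both transcripts were higher on the longer day in the fitted values, and neither passed the test. DM15253P2 averaged -3.88 ± 0.54 under 12L:12D and -4.98 ± 0.60 under 8L:16D (log2, SD, n = 6 each), a difference of 1.10 (SE 0.32, 95% interval 0.44 to 1.75, limma adjusted p 0.359). DM08656P1 averaged -4.77 ± 0.77 under 12L:12D and -6.51 ± 0.37 under 8L:16D, a difference of 1.74 (SE 0.56, 95% interval 0.59 to 2.90, limma adjusted p 0.360). Because 8L:16D was below background, the difference of DM08656P1 rests on dim spots there, and as a bound it was at least 1.83-fold higher under 12L:12D. In that comparison limma called 0 of 14336 probes (0.0%), and 1603 (11.2%) had an unadjusted p under 0.05, both members among them (0.00218 for DM15253P2 and 0.00495 for DM08656P1). All 12L:12D arrays of DM08656P1 were above all 8L:16D arrays, as in 110 of 14336 probes (0.767%), whereas 4 of 6 arrays of DM15253P2 were. When only these 12 arrays were fitted, DM08656P1 passed (limma adjusted p 0.00895) as 1 of 370 probes, and DM15253P2 did not (limma adjusted p 0.102). After normexp background correction and quantile scaling the differences were 0.34 in DM15253P2 and 0.31 in DM08656P1. Over all alternatives the limma adjusted p of DM08656P1 ran between 0.00895 and 0.807.

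Between 12L:12D and the 16L:8D control neither transcript passed the test. For DM15253P2, 12L:12D was at -3.88 ± 0.54 and 16L:8D at -3.45 ± 0.45, a difference of -0.43 (95% interval -1.08 to 0.23, limma adjusted p 0.937). For DM08656P1, 12L:12D was at -4.77 ± 0.77 and 16L:8D at -4.11 ± 1.53, a difference of -0.65 (95% interval -1.81 to 0.50, limma adjusted p 0.955). The intervals reach to a level 2.12-fold lower under 12L:12D for DM15253P2 and 3.51-fold lower for DM08656P1. Without the 16L:8D array of replicate 3 A the mean of DM08656P1 under 16L:8D was -3.57 ± 0.87 (n = 5) and the difference was -1.30 (unadjusted p 0.00675, limma adjusted p 0.640). The overlapping probe DM14137P3 gave -1.38 over all arrays (95% interval -2.41 to -0.35, unadjusted p 0.0112, limma adjusted p 0.556). With slide as a block the difference of DM08656P1 had the opposite sign, 0.36 (limma adjusted p 0.906), and 118 probes were called. limma called 0 of 14336 probes here (0.0%), with 848 (5.92%) at an unadjusted p under 0.05 and neither member among them. The 16L:8D arrays took part in the choice of the probes.

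Between 20L:4D and 16L:8D the values of the transcripts parted. DM15253P2 had nearly the same mean in both, -3.44 ± 0.62 under 20L:4D and -3.45 ± 0.45 under 16L:8D, a difference of 0.01 (95% interval -0.65 to 0.67, limma adjusted p 0.998), an interval that runs from 1.56-fold lower to 1.59-fold higher. DM08656P1 was at -1.80 ± 1.13 under 20L:4D and -4.11 ± 1.53 under 16L:8D. Its difference of 2.31 had a 95% interval of 1.15 to 3.47 and an unadjusted p of 0.000436, yet it did not pass after adjustment over all probes (limma adjusted p 0.935). limma called 0 of 14336 probes (0.0%), and 757 (5.28%) had an unadjusted p under 0.05. Without the low 16L:8D array the difference of DM08656P1 was 1.66, and without the low 20L:4D array it was 2.74. After normexp background correction and quantile scaling it was 1.18 (limma adjusted p 0.209). On the single slide that held both photoperiods, 20L:4D was above 16L:8D by 1.92 in DM08656P1 and differed by -0.02 in DM15253P2.

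Whether the transcripts differed in this step was tested directly. On each array the log2 value of DM15253P2 was taken from that of DM08656P1, which removes the scaling of the array, and the photoperiods were compared by an exact two-sided permutation test over 12 animals (924 regroupings, with p adjusted over 3 comparisons). Detection under both 20L:4D and 16L:8D entered the choice of the probes, and the comparison was made with earlier results of these data known; the difference between the 2 photoperiods was no part of the rule. Animals of a chamber were counted singly, as if independent. Their correlation of 0.0129 is a consensus over all probes and was not computed for the within-array difference. The level of this difference has no meaning between separate probes, so it is given relative to its 16L:8D mean. Under 20L:4D it was 1.25 at its lowest, 2.30 at the median and 2.99 at its highest (n = 6), and under 16L:8D it was -2.46 at its lowest, 0.46 at the median and 1.07 at its highest. All 6 animals of 20L:4D were above all 6 of 16L:8D, the low 20L:4D animal included. The change was larger by 2.30 in DM08656P1 (exact p 0.00216, the smallest this test can give, adjusted p 0.00649). It was larger by 1.81 without the 16L:8D array of replicate 3 A (exact permutation adjusted p 0.013). With the 3 chamber means in place of 6 animals the exact p was 0.10, which is the smallest that 3 against 3 allow. The animals of replicate 3 were the lowest 2 of 16L:8D, at -2.46 and -0.57. Under 20L:4D those of replicate 1 were at 1.25 and 2.30. Chamber-mates were therefore not shown to be independent in this difference.

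In the shorter steps the transcripts were not shown to differ. From 8L:16D to 12L:12D the change was larger by 0.65 in DM08656P1 (exact permutation p 0.266, adjusted p 0.399), and this took the opposite sign, -0.19, when undetected values were raised to the lowest detected value of their array. With DM14137P3 in place of DM08656P1 it was 1.09 (exact permutation p 0.0563, adjusted p 0.0844). Between 12L:12D and 16L:8D the changes differed by -0.23 (exact permutation p 0.742, adjusted p 0.742). This was -0.72 without the 16L:8D array of replicate 3 A (exact permutation p 0.214, adjusted p 0.266) and -0.95 with DM14137P3 in place of DM08656P1 (exact permutation p 0.0952, adjusted p 0.0952). These p-values do not show that the transcripts moved alike there.

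**Figure D3:**
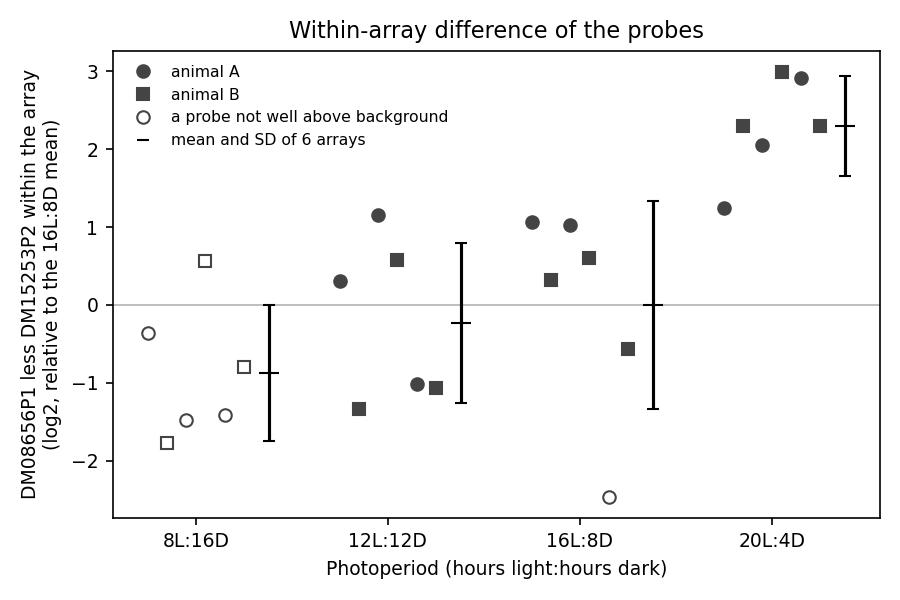
Log2 of DM08656P1 less DM15253P2 on the same array, relative to the 16L:8D mean, for 8L:16D to 20L:4D, with one symbol per animal and the mean and SD of 6 arrays. All 20L:4D animals lie between 1.25 and 2.99 and all 16L:8D animals between -2.46 and 1.07; open symbols mark arrays on which a probe was not well above background.

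The sequence of DM14137P3 overlaps that of DM08656P1, and whether both belong to 1 transcript was not tested. DM14137P3 was detected on 0 of 6 arrays under 4L:20D and 8L:16D, 3 of 6 under 12L:12D, 5 of 6 under 16L:8D and 6 of 6 under 20L:4D. The 3 arrays of 12L:12D on which it was detected were the A animals. On the 13 arrays where both probes were detected, their log2 values correlated at r = 0.99 over arrays of 3 photoperiods, and the excess of DM08656P1 over DM14137P3 stayed between 0.08 and 0.65 (SD 0.18). This leaves out the arrays with 1 probe detected, 4 with DM08656P1 only and 1 with DM14137P3 only. On 1 of the 4, animal B of replicate 2 under 12L:12D, DM08656P1 was at -4.71 and DM14137P3 at -6.55. Over all 30 arrays, undetected values included, r was 0.91, and 0.57 after removal of the photoperiod means. As the probes share 24 bases, they are not taken as independent measurements.

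DM14137P3 bears on the low array of 16L:8D. On animal A of replicate 3 it read 23.5 intensity units and was detected, at a log2 value of -4.00 within the range of its group, while DM08656P1 read 3.35 and was not. DM08656P1 less DM14137P3 was -2.81 on that array, outside the range of the other arrays with detection. For the overlapping probe itself, the difference of 20L:4D from 16L:8D was 1.90 (SE 0.50, limma adjusted p 0.935). With DM14137P3 in place of DM08656P1, the change from 16L:8D to 20L:4D exceeded that of DM15253P2 by 1.89 (exact permutation p 0.00433, adjusted p 0.013). The low 20L:4D animal was low in both: replicate 1 A read 23.4 in DM08656P1, where the other animals of 20L:4D read at least 97.5, and 15 in DM14137P3, where they read at least 73.4.

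**Figure D4:**
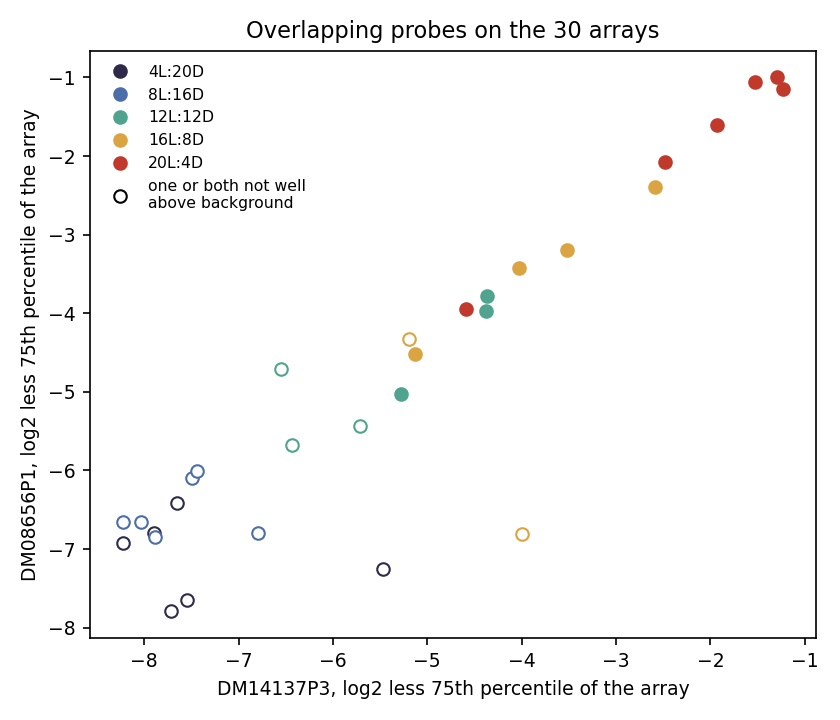
Log2 values of DM08656P1 (vertical) against DM14137P3 (horizontal) on the 30 arrays, coloured by photoperiod, with open symbols where at least 1 of the probes was not well above background. The 13 filled points lie along a line (r = 0.99), and the open 16L:8D point at -6.81 is the array of replicate 3 A.

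Spread between animals of the same photoperiod was unequal. The residual SD was 0.562 for DM15253P2 and 1.01 for DM08656P1 on the log2 scale, against a median of 0.467 over all 14336 probes tested. Chamber means of DM15253P2 lay between -3.65 and -3.16 under 20L:4D and between -3.49 and -3.40 under 16L:8D. Those of DM08656P1 were wider apart, between -2.55 and -1.30 under 20L:4D and between -5.67 and -3.30 under 16L:8D. The -5.67 is the chamber of replicate 3, which holds the undetected array of animal A. Without that array the SD of DM08656P1 under 16L:8D was 0.87 (n = 5), against 1.53 with it. The residual SD was not computed without it. For DM14137P3 the residual SD was 0.897, and chamber means lay between -2.91 and -1.61 under 20L:4D and between -4.56 and -3.78 under 16L:8D. Animals A and B, averaged over photoperiods, differed by 0.25 in DM15253P2 (limma adjusted p 0.934) and by -0.04 in DM08656P1 (limma adjusted p 0.991), with 0 of 14336 probes called (0.0%) and 272 at an unadjusted p under 0.05.

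The arrays were spread over 9 slides, which bears on some steps. From 8L:16D to 12L:12D, 3 slides held both photoperiods. On these 12L:12D was higher by 0.17 to 1.24 in DM15253P2. It was higher in DM08656P1 on all 3 as well, where no size is given because DM08656P1 was undetected under 8L:16D. The 2 slides shared by 12L:12D and 16L:8D gave differences of opposite sign in each probe, from -1.34 to 0.12 in DM15253P2 and from -0.19 to 2.20 in DM08656P1; the value of 2.20 rests on the low array of replicate 3 A.

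The probes whose values ran most alike over the 30 arrays were sought among the 12605 detected on at least 6 arrays, by Pearson's r, as a description in which the arrays share their photoperiods. For DM15253P2 these were DM02748P1 (r = 0.81) and DM08380P2 (r = 0.79), both annotated as uncharacterised proteins, and DM12027P2 (r = 0.77), annotated as Cytochrome P450 305a1, a member of the haem monooxygenases. DM02748P1, detected on all arrays, averaged 5.14 under 12L:12D, 5.27 under 16L:8D and 5.95 under 20L:4D. After removal of the photoperiod means, r was 0.53 for DM02748P1, 0.49 for DM08380P2 and 0.53 for DM12027P2.

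For DM08656P1 the most alike were its overlapping probe DM14137P3 (r = 0.91), DM07202P1 (r = 0.85), which carries the same annotation as DM14137P3, and DM12027P2 (r = 0.81). With the photoperiod means removed, r was 0.57 for DM14137P3, 0.59 for DM07202P1 and 0.45 for DM12027P2. DM07202P1 was detected on longer days still, on 0 of 6 arrays under 4L:20D, 8L:16D and 12L:12D, 1 of 6 under 16L:8D and 5 of 6 under 20L:4D. Its signal was dim, with a median of 13.55 under 20L:4D, and the lowest detected signals over all 30 arrays were 6.45 to 15. On the log2 scale its 20L:4D values ran from -6.31 to -4.71. The lowest detected values of the 20L:4D arrays ran from -6.1 to -5.35. The less strict flag found it on 4 arrays under 4L:20D, 4 under 8L:16D, 6 under 12L:12D, 5 under 16L:8D and 6 under 20L:4D. DM15253P2 and DM08656P1 correlated at r = 0.73 over the 30 arrays, and at 0.24 after removal of the photoperiod means. For DM15253P2 and the overlapping probe DM14137P3 these values were 0.72 and 0.49. The 0.24 includes the 16L:8D array of replicate 3 A, on which DM08656P1 was undetected and DM14137P3 was detected. It was not computed without that array. DM08656P1 ranked 7th among the probes most like DM15253P2, and DM15253P2 ranked 8th among those most like DM08656P1.

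Probes for light sensing and the clock served as a comparison. Further targets of these kinds named by the study were not used here. The annotation with sequences gives such names to 5 probes: the rhodopsin-family receptors DM06155P2 and DM12611P4, the period circadian proteins DM09904P4 and DM14516P3, whose relatives in Drosophila are core parts of the clock, and the F-box/LRR-repeat protein DM09476P2. The study picked some of these on the same animals. In each of the 3 comparisons limma called 0 of 5; an unadjusted p under 0.05 was seen for 2 of them between 20L:4D and 16L:8D and for none in the other comparisons. Over all probes, an unadjusted p under 0.05 was seen in 5.28% between 20L:4D and 16L:8D, 11.2% between 12L:12D and 8L:16D and 5.92% between 12L:12D and 16L:8D. The median difference of the 5 was -0.05 for 12L:12D less 8L:16D, against -0.08 over all probes, and -0.13 for 12L:12D less 16L:8D, against -0.06. For 20L:4D less 16L:8D it was -0.14, against -0.01 over all probes, and single probes lay between -0.43 and 0.72, below the 2.31 of DM08656P1. All 5 were detected on at least 29 arrays, where 8835 of the 14338 probes on the array (61.6%) were detected on all 30.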

How the data were processed

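Cy3-labelled RNA of single animals, made from 80 ng of total RNA, was read on 1-colour Agilent arrays. The authors deposited Feature Extraction output (version 10.7.3.1 per the file headers, 9.5.1 per the processing notes): a background-subtracted intensity, its error, median pixel intensities, and other values, namely detection flags. They also deposited log2 values scaled to the 75th percentile and centred on each probe's median, which differed from values rebuilt here by a median of 0.00815. Of 15744 spots, 15208 were not controls; 222 outlier spots, none in the members, were left out, and 0 were saturated. The log2 of the processed signal, relative to the array's 75th percentile, was fitted with limma 3.58.1 in R 4.3.3 to all 30 arrays, with terms for photoperiod, letter and interaction, after the study's own model. P-values were adjusted by Benjamini-Hochberg over 14336 probes (threshold 0.05). Within-array differences were tested by exact two-sided permutation in Python. The fit was tested on simulated data.

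The members, lists and comparisons were chosen with earlier results of these data known. Named probes were the members, probes sharing at least 15 bases with one, the 3 most alike to each by Pearson's r, those just inside or outside the detection rule, and the light and clock probes. Alternatives covered background correction (normexp, offset 50, on median intensities), scaling, a floor, a filter of 6 arrays, outlier spots, the letter, blocks for replicate number, chamber and slide, chamber means, the 12 arrays compared, a trended robust prior and each chamber left out. Leaving out single low arrays and using DM14137P3 in place of DM08656P1 were added after seeing the data. Sequences and annotations came from the supplement of the study, which gave a sequence for 953 of the 14338 probes. Shares and lists drawn from it cover only the probes it holds. Whether these stand for the whole array was not tested. Only the first of 2 trials was analysed here. The number of arrays limits the precision.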

Additional observations from a re-analysis of the deposited data

Results flagged for a closer look

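In the 15 groups of 6 arrays examined (3 probes in 5 photoperiods), 3 held a sample far from the others by Dixon's criterion; chance gives about 1 in 20 groups. Under 20L:4D, animal A of replicate 1 lay below the others in DM08656P1, at -3.94 against a mean of -1.38 (n = 5). The same animal lay below the others of 20L:4D in DM14137P3, at -4.59 against -1.69, which repeats the first value since the probes overlap. Under 4L:20D, animal B of replicate 3 lay above the others in DM14137P3, at -5.47 against -7.81, and was not well above background there.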

How the results depend on the processing

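Under 32 alternatives each, the differences of DM15253P2 and DM08656P1 kept their direction, and their adjusted p stayed above 0.05, except as follows. For 20L:4D minus 16L:8D, DM15253P2 took the opposite sign with slide as a block (-0.27), without 16L:8D replicate 3 (-0.01), without 20L:4D replicate 2 (-0.13) and without the 16L:8D replicate 3 A array (-0.05). For 12L:12D minus 16L:8D, DM08656P1 did so with slide as a block (0.36), where 118 probes were called. For 12L:12D minus 8L:16D, DM08656P1 passed when only the 12 arrays were fitted (1.74), with 370 probes called. Normexp with quantile scaling gave smaller values with no change of call: 0.34 for DM15253P2 and 0.31 for DM08656P1 (12L:12D minus 8L:16D), and 1.18 for DM08656P1 (20L:4D minus 16L:8D). The less strict detection flag gave 3 arrays for DM15253P2 under 4L:20D, and for DM08656P1 3 under 4L:20D and 6 under 8L:16D. The cause was not tested.

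The larger change of DM08656P1 from 16L:8D to 20L:4D kept its direction in 17 alternatives and passed in 16; with chamber means it was 2.30 (p 0.10, adjusted p 0.30), a design that cannot pass. Normexp gave 1.17. For 12L:12D minus 8L:16D the difference between probes reversed with normexp (-0.04) and with values raised to the floor (-0.19). For 12L:12D minus 16L:8D it reversed without 12L:12D replicate 3 (0.18), 16L:8D replicate 1 (0.12) and 16L:8D replicate 2 (0.18).

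Leaving out each chamber in turn gave, for DM15253P2, 0.93 to 1.43 (12L:12D minus 8L:16D), -0.60 to -0.10 (12L:12D minus 16L:8D) and -0.13 to 0.12 (20L:4D minus 16L:8D), and for DM08656P1 1.53 to 1.98 (12L:12D minus 8L:16D), -1.43 to -0.25 (12L:12D minus 16L:8D) and 1.53 to 2.71 (20L:4D minus 16L:8D). The difference between probes ran from 0.10 to 1.05 for 12L:12D minus 8L:16D, from -0.98 to 0.18 for 12L:12D minus 16L:8D and from 1.54 to 2.71 for 20L:4D minus 16L:8D. The probes called ranged from 0 to 1 for 12L:12D minus 8L:16D (1 without 12L:12D replicate 2) and were 0 in the other comparisons.

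Replicate numbers were not treated as pairs: of 30 same-numbered chamber pairs, 8 correlated above 0.1 (-0.672 to 0.418). Chambers of unlike number were not compared, so these values do not show that pairing was absent. A replicate block left the differences at 1.10 and 1.74 (12L:12D minus 8L:16D), -0.43 and -0.65 (12L:12D minus 16L:8D) and 0.01 and 2.31 (20L:4D minus 16L:8D) for DM15253P2 and DM08656P1, with 0 probes called; permuted within replicate number, the difference between probes of 2.30 had p 0.00926 (the smallest possible, adjusted p 0.0278). Signals near background limit every value of 4L:20D and those of DM08656P1 under 8L:16D.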
